A study of Mus musculus with 12 samples.

Results

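The array carried 39 Hox genes, taken as every gene of the array design named Hox followed by a cluster letter (a to d) and a paralogue number, among 34797 gene names in all. They were read by 44 of the 55681 probes, 11 genes in the Hoxa cluster on chromosome 6, 10 in Hoxb on chromosome 11, 9 in Hoxc on chromosome 15 and 9 in Hoxd on chromosome 2. Their signals were examined in whole aortic tissue of male mice on 12 one-colour arrays, both between groups and as a record of the stretch of aorta that was sampled. Hoxa5 and Hoxc8 were the markers chosen for the set. Hoxa5 was well above background, which means a signal exceeding the background by 13 times the SD of that background, on 12 of 12 arrays. Hoxc8, read by 1 probe, was well above background on 0 of 12 arrays. It was not borne out as a marker here, and the genes are called by their names below. A single dim probe does not show that a gene is silent. The 2 probes of Hoxa9, for example, were well above background on 10 and 0 arrays.

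The study used mice homozygous for a floxed Socs3 allele, bred on a mixed background labelled 129S5/SvEvBrd, C57BL6 and SJL. smSocs3-KO mice also carried the SM22-Cre transgene, whose promoter is active in smooth muscle, and WT mice were Socs3fl/fl littermates without it, so that both genotypes share the floxed allele. Each genotype was sampled without infusion (pre) and at day 3 of BAPN + AngII challenge, with β-aminopropionitrile at 150 mg/kg/day and angiotensin II at 1000 ng/kg/min from minipumps, which gave 4 groups of 3 arrays. The labels give neither an age nor a segment of aorta, while the methods of the study describe tissue cut from above the right renal artery for the mRNA work of its own mice.

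The RNA came from the whole tissue while Cre acts in smooth muscle. In such bulk samples fewer cells of a type and less RNA per cell cannot be told apart. The Socs3 signal was not lower on the arrays labelled smSocs3-KO, which ranged from 0.24 to 1.46 before challenge against 0.30 to 0.75 in WT, and from 2.28 to 4.13 at day 3 against 0.64 to 2.30 in WT. Whether its probe lies inside the deleted part was not determined, so genotype is named as labelled throughout. All 10 smooth muscle markers of the list used here were measured, and 0 were called in the tests described below. As a mean relative to all arrays, they lay between 0.21 and 0.22 in WT pre and between -0.44 and 0.36 in WT day 3. In smSocs3-KO mice they lay between 0.16 and 0.51 before challenge and between -0.64 and -0.17 at day 3, without overlap. Their part in the Hox values was not tested. Between 55.4% and 61.2% of spots were well above background per array and none was saturated. The first slide held all WT arrays and smSocs3-KO pre replicate 1, and the second slide held the other smSocs3-KO arrays, so that at day 3 genotype and slide cannot be told apart. Values are log2 of the processed signal relative to the 75th percentile of the array. A level is compared between arrays for the same probe only. The lowest signal well above background lay between -4.55 and -3.85 on arrays of the first slide and between -4.93 and -4.74 on the second. A dim signal could thus count as detected on the second slide and not on the first.

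Hox genes encode homeodomain transcription factors that lie in 4 clusters. Within a cluster, genes of low paralogue number are expressed from more anterior levels of the embryo, and genes of high paralogue number from progressively more posterior levels. Vascular smooth muscle and fibroblasts keep part of this pattern in the adult, so that the set of Hox genes expressed differs along the length of the aorta. Hox proteins bind DNA together with the TALE homeodomain cofactors (Pbx, Meis and Pknox), and retinoic acid is a classical regulator of the anterior Hox genes.

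2 Hox probes are shown because both read genes of the Hoxc cluster that stayed undetected. The Hoxc8 probe (mm9 chr15:102821238-102821297, plus strand) is the only one for that marker gene. The Hoxc11 probe (mm9 chr15:102787022-102787081, plus strand) reads a more posterior gene of the same cluster. Both are given in lower case, with no part marked.
Hoxc8: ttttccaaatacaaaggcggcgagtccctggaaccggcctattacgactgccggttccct
Hoxc11: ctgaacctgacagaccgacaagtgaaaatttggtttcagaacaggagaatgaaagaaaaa

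Each of these probes was well above background on 0 arrays. Hoxb3 was read by 2 probes, of which the dimmer one lists RefSeq accessions of both Hoxb3 and Hoxd3 and was well above background on 12 arrays. The probe of Hoxd3 itself was well above background on 0 arrays.

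Detection was most complete at low paralogue numbers in the Hoxa and Hoxb clusters, whereas Hoxc and Hoxd did not follow paralogue number. Of the 39 genes, 11 were well above background on every array, 16 on some and 12 on none. The 11 genes, all in the Hoxa and Hoxb clusters, included Hoxa2, Hoxa3, Hoxa4, Hoxa5, Hoxa7, Hoxb2, Hoxb3, Hoxb4, Hoxb5 and Hoxb6. By paralogue number, 9 of the 15 genes numbered 1 to 5 were detected on every array, 2 of the 12 genes numbered 6 to 9 and 0 of the 12 genes numbered 10 to 13. No gene of the Hoxc cluster was detected on every array of a group, and the 9 Hoxc genes had between 0 and 5 arrays each. Each Hoxc gene was read by 1 probe, so a failing probe and a silent gene cannot be told apart there. In Hoxd the genes with most detections were Hoxd4 and Hoxd11 with 8 arrays each and Hoxd8 with 4, while Hoxd1 and Hoxd3 had 0.

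**Figure D1:**
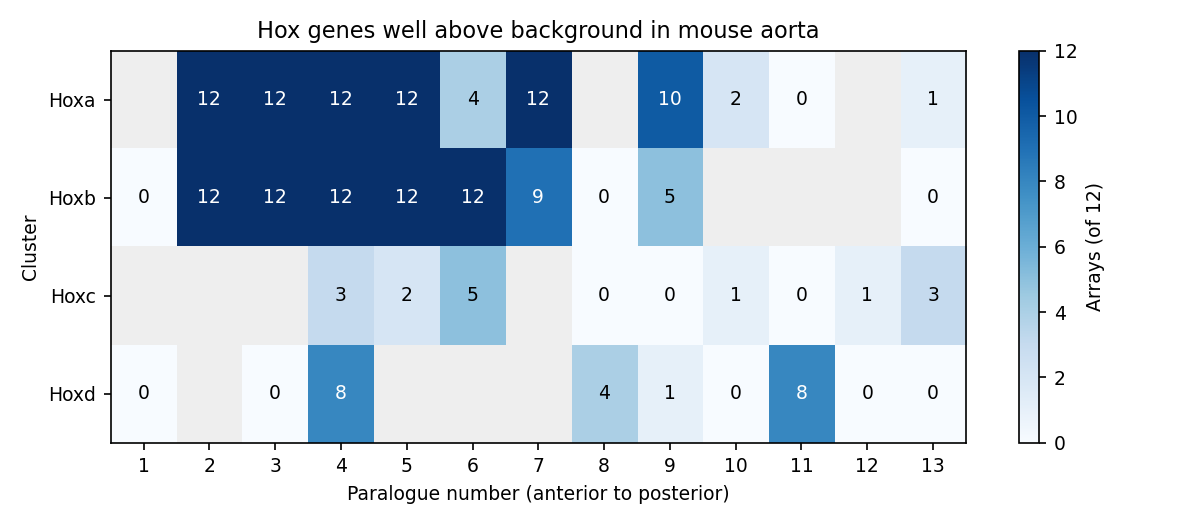
Number of arrays (of 12) on which each Hox gene was well above background, by cluster (rows) and paralogue number (columns), with grey where no value is shown. The filled block runs from Hoxa2 to Hoxa7 and from Hoxb2 to Hoxb6, apart from Hoxa6 with 4 arrays, and the Hoxc row reaches at most 5 arrays.

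The genes not well above background on any array were Hoxa11, Hoxb1, Hoxb8, Hoxb13, Hoxc8, Hoxc9, Hoxc11, Hoxd1, Hoxd3, Hoxd10, Hoxd12 and Hoxd13. With the milder criterion of a positive signal significantly above background, 17 genes were detected on all arrays, among them Hoxa13 and Hoxd11. 3 genes were then detected on none, namely Hoxb1, Hoxb13 and Hoxc9. Hoxc8 then reached 1 array. The number of Hox genes well above background per array was lowest at 13, on WT day 3 replicate 4 and smSocs3-KO pre replicate 1. It was highest at 19, on each of the 3 smSocs3-KO day 3 arrays. Those 3 arrays are on the second slide, where dimmer signals counted as detected.

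The highest paralogue number detected was 13 in Hoxa, 9 in Hoxb, 13 in Hoxc and 11 in Hoxd. Hoxa13, which patterns the distal limb and urogenital tract, was well above background on smSocs3-KO pre replicate 3 alone, at -4.73, and its second probe on no array. Hoxc13, known for its role in hair and nail, was well above background on WT pre replicate 1 at -3.54, WT pre replicate 2 at -3.96 and WT day 3 replicate 1 at -3.90, and its spot carried an outlier mark on smSocs3-KO pre replicate 1. Neither gene was detected on all arrays of a group.

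Hoxd11, which acts in limb and kidney development, was read by 2 probes that disagreed. The brighter probe lies at mm9 chr2:74525014-74525073 and its transcript matched no RefSeq symbol in the table used. It read -3.16, -3.78 and -2.96 in WT pre, -3.62, -3.68 and -5.06 in WT day 3, -3.53, -5.71 and -5.53 in smSocs3-KO pre, and -5.50, -4.05 and -4.37 in smSocs3-KO day 3. It was well above background on 8 arrays, whereas the probe at mm9 chr2:74522136-74522195, matched to Hoxd11 in RefSeq, was so on 1 array, smSocs3-KO day 3 replicate 5, at -2.50. The Hoxd11 values below therefore describe the first probe, and its identity as Hoxd11 mRNA is uncertain. The 2 probes of Hoxa9 and of Hoxa13 also differed, with the dimmer one on 0 arrays in each case.

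18 Hox genes were measured for the comparisons, meaning that every array of some group detected a probe of the gene well above background. They were the 11 genes above together with Hoxa6, Hoxa9, Hoxb7, Hoxb9, Hoxd4, Hoxd8 and Hoxd11. These last 7 passed through some groups and not others, so a difference between groups is partly built into their selection and their number is not used as support.

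**Figure D2:**
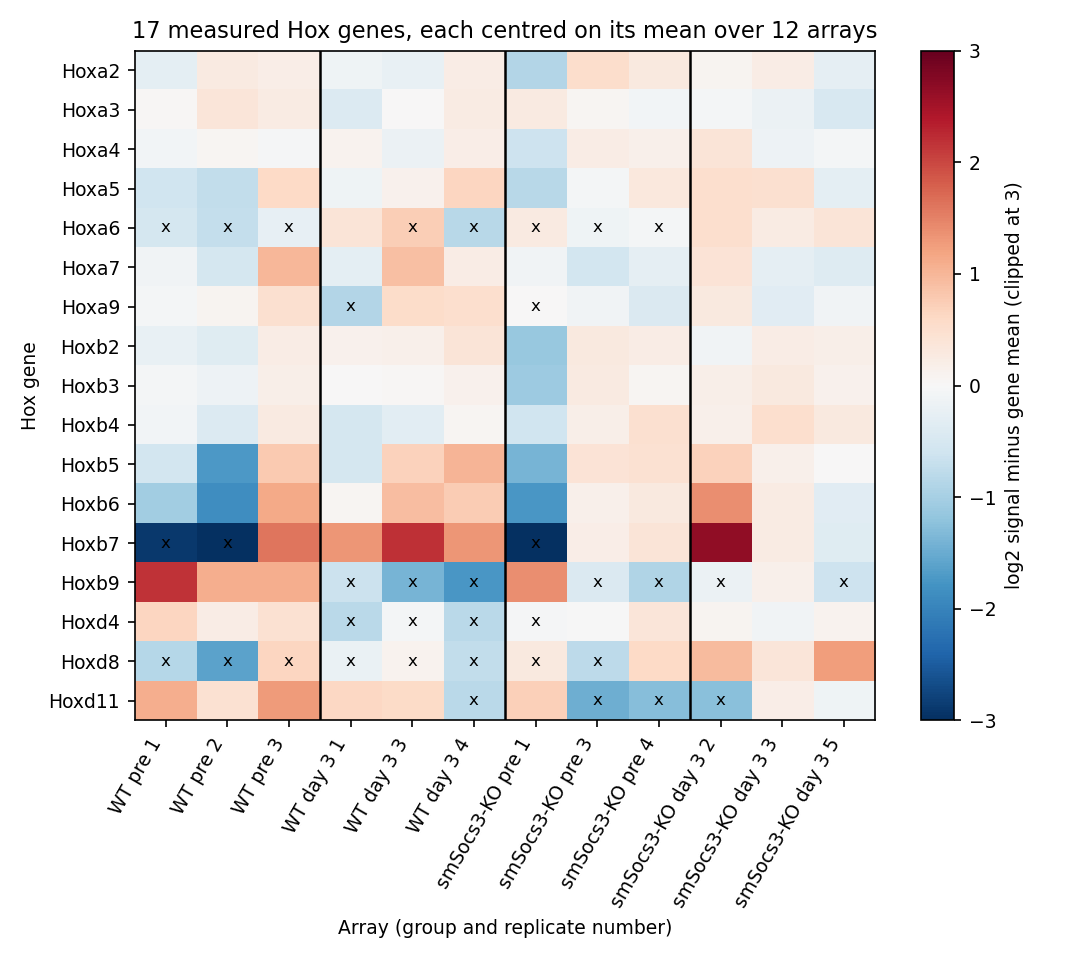
Log2 signal of 17 of the 18 measured Hox genes (rows) on the 12 arrays (columns, by group and replicate), each gene centred on its own mean, with x where the probe was not well above background. Hoxb5, Hoxb6 and Hoxb7 are lowest on WT pre replicates 1 and 2 and smSocs3-KO pre replicate 1, where Hoxb9 is highest. Hoxb9 is almost as high on WT pre replicate 3.

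The widest variation of a measured Hox gene, that of Hoxb7, lay largely between arrays of the same group. Hoxb7, a mid-trunk gene of the Hoxb cluster (mm9 chr11:96151211-96151270), read -5.73, -6.39 and -1.24 in WT pre, -1.51, -0.65 and -1.52 in WT day 3, -6.00, -2.65 and -2.44 in smSocs3-KO pre, and -0.18, -2.59 and -3.21 in smSocs3-KO day 3. It was not well above background on WT pre replicates 1 and 2 and smSocs3-KO pre replicate 1, and well above it on the other 9. Its SD over the 12 arrays was 2.12, larger than that of 99.6% of all genes tested.

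Hoxb6, its neighbour, read -2.02, -2.84 and 0.17 in WT pre, -0.91, -0.05 and -0.21 in WT day 3, -2.71, -0.82 and -0.68 in smSocs3-KO pre, and 0.42, -0.72 and -1.32 in smSocs3-KO day 3. Hoxb5 read -1.79, -2.96 and -0.44 in WT pre, -1.75, -0.54 and -0.22 in WT day 3, -2.62, -0.82 and -0.77 in smSocs3-KO pre, and -0.54, -1.09 and -1.22 in smSocs3-KO day 3. The same 3 pre arrays were lowest for both genes, and all 4 groups overlapped.

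Hoxa5, the detected marker, which patterns the lung, cervical and upper thoracic levels, read -2.46, -2.58 and -1.26 in WT pre, -1.99, -1.71 and -1.20 in WT day 3, -2.68, -1.92 and -1.54 in smSocs3-KO pre, and -1.35, -1.38 and -2.14 in smSocs3-KO day 3. Again the lowest arrays were WT pre replicates 1 and 2 and smSocs3-KO pre replicate 1. The Hoxc8 probe read between -7.16 and -6.15 on the 12 arrays, not well above background on any.

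These 3 arrays were the lowest 3 for 6 of the 18 measured Hox genes, namely Hoxa5, Hoxb2, Hoxb3, Hoxb5, Hoxb6 and Hoxb7, and the highest 3 for Hoxb9. Over all genes they were the lowest 3 for 10.6% and the highest 3 for 6.92%. For Hoxb9, WT pre replicate 3 came next, at -3.58 against -3.57 on WT pre replicate 2. The arrays were picked out on Hoxb7 after its values were seen, so Hoxb7 is among the 6 by construction. They belong to 2 groups and 1 slide, and the ranks are given as a description. For Hoxb5 the rank was close, at -1.79 on WT pre replicate 1 against -1.75 on WT day 3 replicate 1. For Hoxb3 the rank held for the brighter probe, while the dimmer probe read between -2.65 and -1.86 with its highest value on WT pre replicate 1. Hoxb2, Hoxb3, Hoxa2 and Hoxa4 were at their lowest on smSocs3-KO pre replicate 1, at 0.35, -2.32, -0.96 and -2.31, and the 8 endothelial markers together were also lowest there, at -0.64 relative to their mean over arrays. The part of cell makeup in these values was not tested.

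**Figure D3:**
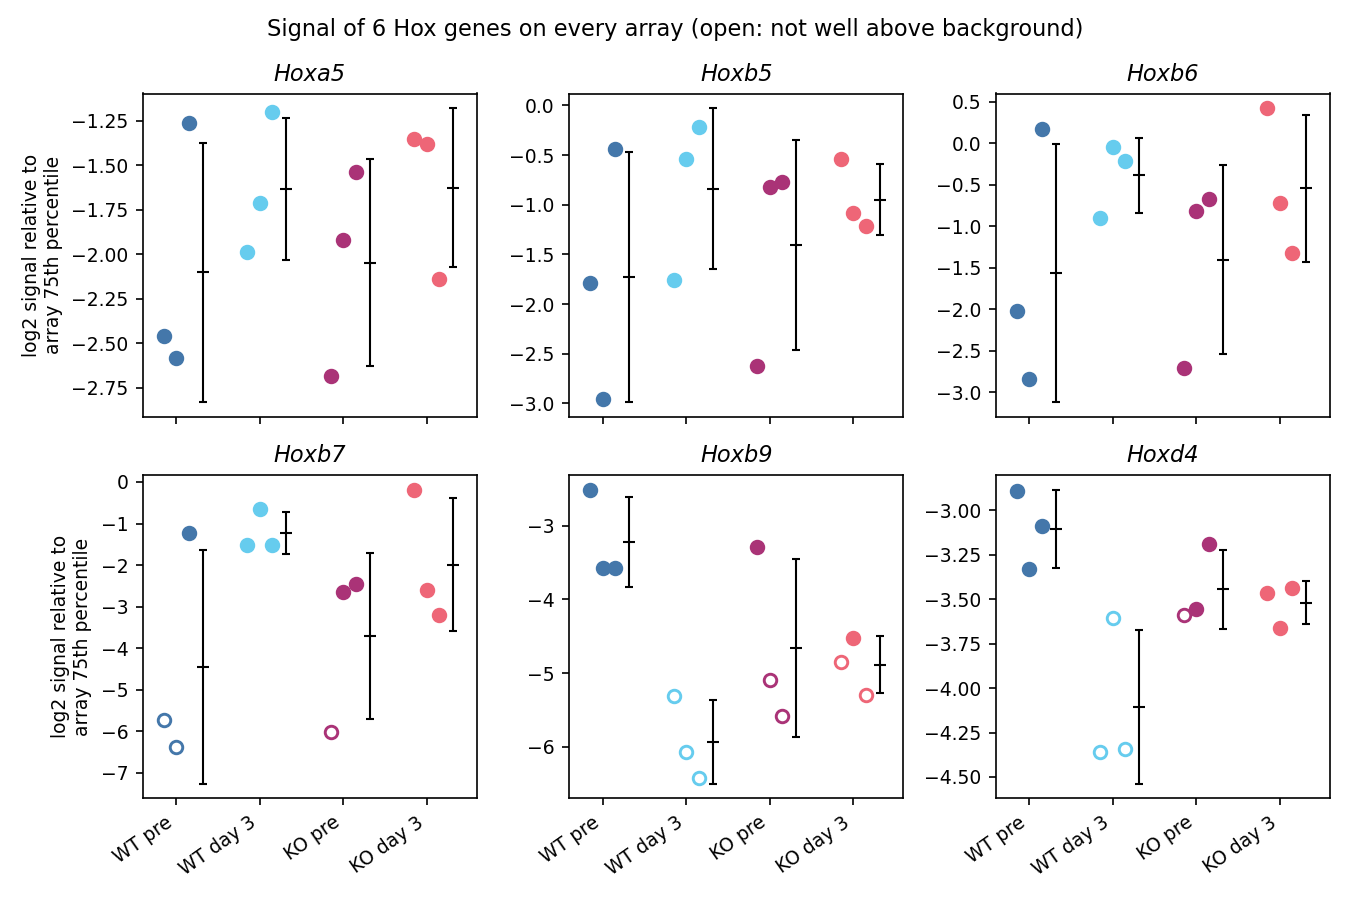
Log2 signal relative to the array 75th percentile for Hoxa5, Hoxb5, Hoxb6, Hoxb7, Hoxb9 and Hoxd4 on every array, by group, with filled points well above background and open points not, and a bar for the mean and SD (n = 3). Hoxb7 spans from -6.39 to -0.18, and in WT mice the Hoxb9 and Hoxd4 points of day 3 lie below all points of the pre group.

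The first comparison asked what 3 days of BAPN + AngII challenge did in WT aorta. 2 of the 18 measured Hox genes fell and 0 rose at an adjusted p under 0.05 (limma, Benjamini-Hochberg over 22761 genes), against 4.68% of all genes tested called in either direction, 3.59% called higher and 1.09% called lower. At an unadjusted p under 0.05 there were 3 of 18, against 26.6%. Both were among the 7 genes detected in some groups only, and none of the 11 genes detected on every array was called. 

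Hoxb9, the most posterior Hoxb gene detected, which acts in thoracic patterning (mm9 chr11:96137748-96137807), read -2.51, -3.57 and -3.58 in WT pre and -5.31, -6.07 and -6.42 in WT day 3. It was well above background on 3 of 3 arrays before challenge and on 0 of 3 at day 3, and the groups did not overlap, as was the case for 35.3% of all genes. Its mean fell from -3.22 ± 0.61 to -5.93 ± 0.57 (SD, n = 3), a log2 difference of -2.71 (SE 0.55, limma adjusted p = 0.0334). Hoxb9 was measured only through WT pre, so a fall from that group was favoured by its selection. The call is therefore given as a description and not used as support.

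Because the day 3 signals were not well above background, the difference is a bound. Each dim array was set at the lowest signal well above background on that array, or at its own value where higher. A dim probe can lie above this floor, as Hoxd4 did at -3.60 on WT day 3 replicate 3, where the floor was -3.97. The bounds given here and below hold only under this rule and are not strict minima. With the deposited background subtraction, Hoxb9 was then at least 2.08-fold lower at day 3. The call was lost, with an adjusted p between 0.0546 and 0.142, without any 1 of WT pre replicates 1, 2 and 3, WT day 3 replicates 1 and 3, or smSocs3-KO pre replicate 4, at values from -3.02 to -2.36. With another background correction (normexp, with the same 75th percentile) the difference was -0.66 (limma adjusted p = 0.142), a smaller fall than that bound.

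Hoxd4, an anterior gene active at hindbrain and cervical levels (mm9 chr2:74566866-74566925), read -2.89, -3.33 and -3.09 in WT pre and -4.36, -3.60 and -4.35 in WT day 3. The groups did not overlap, with 3 of 3 arrays well above background before challenge and 0 of 3 at day 3. The mean fell from -3.10 ± 0.22 to -4.10 ± 0.43, a log2 difference of -1.0 (SE 0.23, limma adjusted p = 0.0390). Hoxd4 was measured through WT pre and smSocs3-KO day 3 and not through WT day 3, so its selection also favoured a fall here. By the same bound, with the same subtraction, the signal was at least 1.99-fold lower. The call was lost without any 1 of 9 arrays, at an adjusted p from 0.0502 to 0.172, and kept without WT day 3 replicate 4 or smSocs3-KO pre replicates 1 or 3. With normexp the difference was -0.34 (limma adjusted p = 0.300), a smaller fall than that bound.

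Hoxb7 differed most in size in this comparison, by 3.22 (95% interval 0.24 to 6.20), without passing the test (limma adjusted p = 0.160). It was not well above background on 2 of 3 WT pre arrays, so this size rests on dim signals, and with normexp it was 0.97 (adjusted p = 0.251). Without WT pre replicate 3, the array with Hoxb7 well above background, the difference was 4.83 (adjusted p = 0.0686), and without WT pre replicate 2 it was 2.26 (adjusted p = 0.410). Its probe lies 13.46 kb from that of Hoxb9. On WT pre replicates 1 and 2 Hoxb7 was among its lowest values and Hoxb9 among its highest. WT pre replicate 3 broke this pattern, with Hoxb9 at -3.58, beside -3.57 on replicate 2, and Hoxb7 at -1.24. Hoxa5 differed by 0.47 (adjusted p = 0.484), by 0.23 without WT pre replicate 2, 0.25 without WT day 3 replicate 4, 0.29 without WT pre replicate 1 and 0.89 without WT pre replicate 3. With normexp it was 0.22. The 11 genes detected on every array had a median difference of 0.07, against -0.02 for all genes.

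Other markers moved between the same WT groups. The 5 measured of 9 lymphocyte and thymus markers lay between 0.10 and 0.91 before challenge and between -0.69 and -0.20 at day 3, as a mean relative to all arrays, and 1 of them, the T cell receptor chain gene Cd3g, fell by 1.97. The 7 measured of 9 cell cycle genes all rose, from between -1.88 and -1.52 to between 0.67 and 3.42, with WT day 3 replicate 4 lowest. The 6 macrophage markers went from between -0.58 and -0.56 to between -0.48 and 0.86, the 5 red blood cell markers from between -0.58 and -0.07 to between 0.17 and 1.34, and the 8 endothelial markers from between -0.080 and 0.0025 to between 0.16 and 0.22, without overlap and with 0 genes of these lists called by limma. The 6 mesothelium markers overlapped, between -2.31 and 0.28 and between -2.71 and -0.43. Their part in the Hoxb9 and Hoxd4 differences was not tested.

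**Figure D4:**
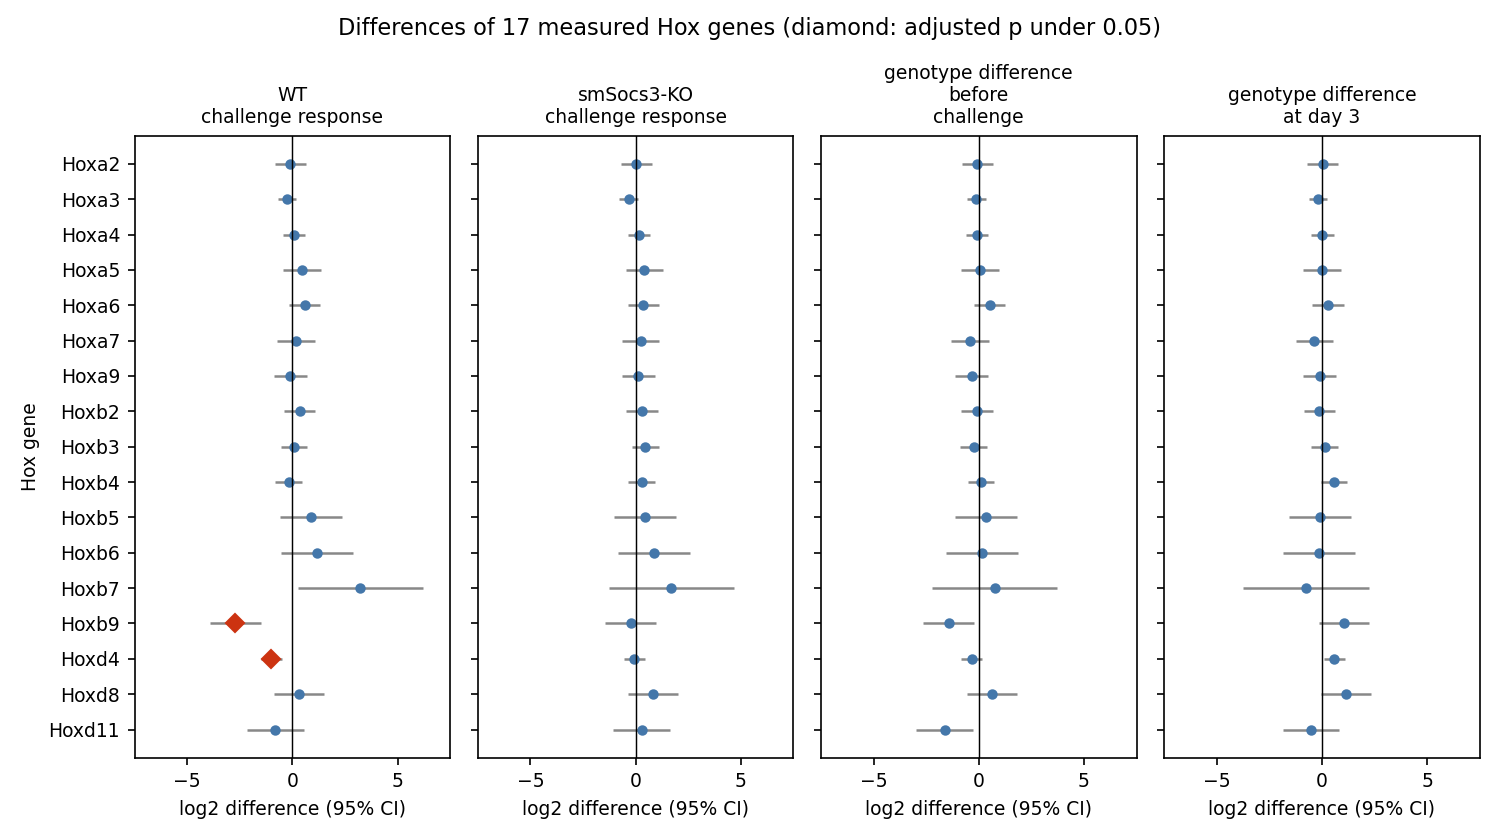
Log2 difference of 17 of the 18 measured Hox genes in 4 comparisons, with 95% intervals from limma, and diamonds for an adjusted p under 0.05. Challenge responses are day 3 minus pre and genotype differences are smSocs3-KO minus WT. The 2 diamonds are Hoxb9 and Hoxd4 in WT mice, and the widest intervals belong to Hoxb7.

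In the mice labelled smSocs3-KO, the challenge called 0 of the 18 Hox genes by limma at an adjusted p under 0.05, against 2.45% of all genes, and 0 at an unadjusted p under 0.05, against 23.8%. The groups did not overlap for 0 of 18, against 28.1%. The 11 genes detected on every array had a median difference of 0.29, against -0.06 for all genes, and 9 of the 11 differences were above 0, against 44.6% of all genes. The genes with the smallest p were Hoxa3, Hoxb3 and Hoxd8. Hoxa3, which acts in the pharyngeal arches and great vessels, read 3.40, 3.20 and 3.06 before challenge and 3.07, 2.94 and 2.65 at day 3, a difference of -0.33 (95% interval -0.77 to 0.11, adjusted p = 0.329). Hoxb3, a hindbrain and pharyngeal gene, read -2.32, -0.97 and -1.19 before challenge and -1.07, -0.96 and -1.11 at day 3. Its difference of 0.45 (adjusted p = 0.358) was 0.04 without smSocs3-KO pre replicate 1.

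Hoxd8, a trunk gene of the Hoxd cluster, read -4.37, -5.45 and -4.06 before challenge and -3.71, -4.30 and -3.42 at day 3. It was well above background on 1 of 3 and then 3 of 3 arrays and differed by 0.82 (95% interval -0.37 to 2.0, adjusted p = 0.370). The difference was 0.40 without smSocs3-KO pre replicate 3, and with normexp its sign turned, at -0.089. Hoxa6, a cervicothoracic gene, was detected on 0 of 3 and then 3 of 3 of these arrays, at between -4.87 and -4.48 and between -4.49 and -4.24. With the deposited background subtraction this allows only a bound of at least 1.09-fold. WT day 3 replicate 3, on the first slide, read -4.00 without counting as detected. Hoxa6 and Hoxd8 were measured only through smSocs3-KO day 3, which favoured higher values in that group. Hoxb9 differed by -0.23, with 1 of 3 arrays well above background in both groups, and Hoxd4 by -0.08. Without smSocs3-KO pre replicate 1, which leaves arrays of the second slide, the Hoxb7 difference went from 1.70 to 0.55.

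Whether the challenge response differed by genotype was tested as an interaction, which called 0 of all 22761 genes by limma, or 0.0%. Unadjusted, 2 of the 18 Hox genes had a p under 0.05 against 5.33% of all genes. These were Hoxb9, with a difference between responses of 2.48 (SE 0.77, limma adjusted p = 0.825), and Hoxd4, with 0.92 (SE 0.32, limma adjusted p = 0.897). Hoxd11 was next, at 1.1 (adjusted p = 0.977). With normexp the differences were 0.38 for Hoxb9, 0.077 for Hoxd4 and 0.11 for Hoxd11. Hoxb9 and Hoxd4 were measured through WT pre and not through WT day 3, which favoured a fall in WT mice. Their fall in WT mice was thus not shown to differ from the response in smSocs3-KO mice.

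The threshold of the study's methods, a p under 0.01 with a fold of more than 4 either way, applied here to the unadjusted p, called 1 of the 18 Hox genes in the WT challenge and in the interaction, Hoxb9 in both. It called 0 in the smSocs3-KO challenge and in the genotype comparisons before challenge and at day 3. Over all genes it called 1.28% in the WT challenge, 1.63% in the smSocs3-KO challenge, 0.242% before challenge, 1.11% at day 3 and 0.308% in the interaction.

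Before challenge, genotype called 0 of the 18 Hox genes, against 0.0264% of all genes, and 2 had an unadjusted p under 0.05, against 4.4%. Hoxd11 differed by -1.62 (95% interval -2.97 to -0.28) and Hoxb9 by -1.44 (95% interval -2.64 to -0.23), both at a limma adjusted p of 1.0. Both genes were measured only through WT pre, so lower values in smSocs3-KO pre were favoured by their selection. The count of 2 is therefore not used as support. In both, smSocs3-KO pre replicate 1, on the slide of the WT arrays, lay within the WT pre range, Hoxb9 at -3.29 and Hoxd11 at -3.53, and the pair of arrays on the second slide lay below it. The fit with slide as a block gave -0.07 for Hoxb9 and -0.23 for Hoxd11, and normexp gave -0.46 and -0.45. Hoxa6 followed, with all arrays of both groups not well above background, and was the 1 Hox gene whose groups did not overlap, against 11.1% of all genes.

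At day 3, genotype called 0 of the 18 Hox genes against 1.11% of all genes, and 1 had an unadjusted p under 0.05 against 16.2%. Hoxd4 differed by 0.58 (95% interval 0.09 to 1.08, limma adjusted p = 0.244), which as a bound is at least 1.49-fold with the deposited background subtraction. With normexp its sign turned, at -0.040 (adjusted p = 0.934). Hoxd8 was well above background on 3 of 3 smSocs3-KO and 0 of 3 WT arrays, the latter at -4.86, -4.56 and -5.41. It differed by 1.13 (limma adjusted p = 0.331), at least 1.39-fold with the same subtraction, but by 0.0092 (limma adjusted p = 0.988) with normexp. Hoxd8 was measured only through smSocs3-KO day 3, and Hoxd4 through it and WT pre, which favoured higher smSocs3-KO values at day 3. The detection counts compare 2 slides. Hoxd4 was not well above background at -3.60 on WT day 3 replicate 3, but was so at -3.66 on smSocs3-KO day 3 replicate 3. Hoxb4, a hindbrain and cervical gene, read 0.79, 1.0 and 1.39 in WT and 1.48, 1.81 and 1.61 in smSocs3-KO mice, and differed by 0.58 (adjusted p = 0.354). With slide as a block, resting on the slides of the pre arrays, the Hoxb4 difference was -0.35 and that of Hoxd4 0.37.
 
Groups that did not overlap at day 3 were found for Hoxb3, Hoxb4, Hoxb9 and Hoxd8, 4 of 18 Hox genes against 20.5% of all genes. Hoxb9 was not well above background on all WT arrays and on 2 of 3 smSocs3-KO arrays there.

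A position index was formed per array as the mean of the measured Hox genes numbered 6 to 13 (8 genes) minus that of the genes numbered 1 to 5 (10 genes), each gene centred on its mean over arrays, so that a higher value stands for relatively more posterior Hox signal. It was -0.14, -0.58 and 0.58 in WT pre, 0.28, 0.58 and -0.42 in WT day 3, 0.37, -0.61 and -0.45 in smSocs3-KO pre, and 0.43, -0.07 and 0.03 in smSocs3-KO day 3. All groups overlapped, and the differences between group means, from -0.18 to 0.36, were smaller than the SD within groups of 0.49. This index cannot show whether the groups differ in the segment sampled. Of its 8 genes numbered 6 to 13, Hoxb9 and Hoxd11 were measured only through WT pre. Hoxa6 and Hoxd8 were measured only through smSocs3-KO day 3. Hoxb7 had a pooled SD within groups of 1.91, in part from signals not well above background.

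The index depended on which genes entered. With genes numbered 9 to 13 (Hoxa9, Hoxb9 and Hoxd11) against 1 to 4, it was 1.08, 0.55 and 0.76 in WT pre and -0.10, 0.02 and -0.79 in WT day 3, a difference of -1.09. Hoxb9 was detected on 3, 0, 1 and 1 of the 3 arrays of WT pre, WT day 3, smSocs3-KO pre and smSocs3-KO day 3, and Hoxd11 on 3, 2, 1 and 2. Both were thus measured only through WT pre, so that a high WT pre value was built into this version and its group differences are not used as support. The smSocs3-KO pre arrays then read 1.25, -0.89 and -1.08, with the array on the first slide beside the WT pre arrays, and the smSocs3-KO day 3 arrays -0.43, -0.14 and -0.23.

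**Figure D5:**
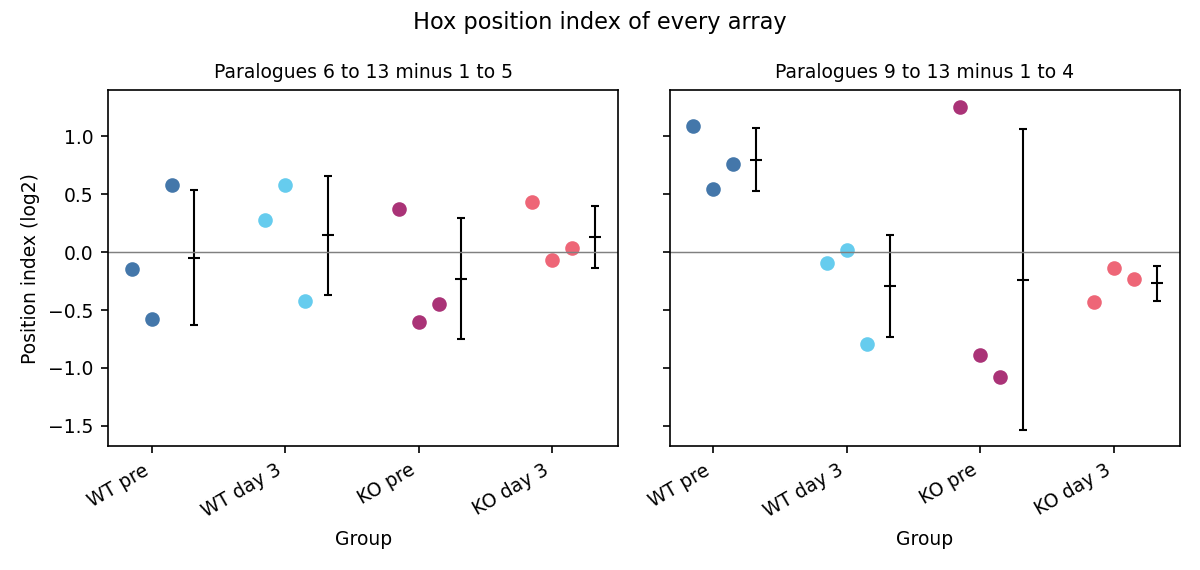
Hox position index (log2) of every array by group, with genes numbered 6 to 13 minus 1 to 5 on the left and 9 to 13 minus 1 to 4 on the right, and a bar for the mean and SD (n = 3). The groups overlap on the left, whereas on the right the WT pre arrays lie from 0.55 to 1.08, above all WT day 3 arrays, as the choice of Hoxb9 and Hoxd11 through WT pre favours.

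Genes that act with or upstream of the Hox genes were examined as lists. Of all genes, 4.68% were called in the WT challenge, 2.45% in the smSocs3-KO challenge, 0.0264% by genotype before challenge, 1.11% at day 3 and 0.0% in the interaction, so that 0 calls in lists of 1 to 21 genes lie near the share of all genes. Of the TALE cofactors, 9 of 9 were measured and 0 were called in any comparison by limma, with a median difference of -0.11 in WT and -0.21 in smSocs3-KO mice. The 21 chromatin regulators of Hox clusters, such as Polycomb and trithorax group genes, were all measured, with 0 called and medians of -0.17 and 0.04. Of 8 Cdx, Evx and ParaHox genes, which lie at the ends of or beside Hox clusters or regulate them, 1 was measured, Evx2 at the end of the Hoxd cluster, and it was not called. Of 12 transcription factors of the heart outflow and ascending aorta, 10 were measured and 0 were called.

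The retinoic acid pathway had 15 of 18 genes measured. It had 0 calls in WT mice, and 2 genes rose in smSocs3-KO mice on challenge, where 1.71% of all genes were called higher. Aldh1a3, an enzyme that makes retinoic acid, read between -1.78 and -0.60 before challenge and between 1.09 and 2.17 at day 3, a difference of 2.62 (SE 0.52, limma adjusted p = 0.0360). Crabp2, which carries retinoic acid to its nuclear receptors, read between -0.44 and 0.02 and between 2.13 and 2.70, a difference of 2.62 (SE 0.49, adjusted p = 0.0308). Among arrays of the second slide the differences were 2.29 (limma adjusted p = 0.0717) for Aldh1a3 and 2.48 (limma adjusted p = 0.0351) for Crabp2. In WT mice Crabp2 was also higher at day 3, between 0.27 and 2.82 against between -0.13 and 0.20 before challenge, without a call. Aldh1a3 overlapped there, between -1.36 and 0.90 against between -0.70 and -0.47. The interaction called neither gene, so a rise particular to smSocs3-KO mice was not shown.

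Cyp26b1, an enzyme that degrades retinoic acid, was higher in smSocs3-KO than in WT mice at day 3, at 2.89 to 3.45 against 0.79 to 1.79, where 0.958% of all genes were called higher. The difference was 1.77 (SE 0.31, limma adjusted p = 0.0282), and 1.12 with slide as a block (adjusted p = 0.327). In the same comparison the 6 fibroblast markers lay between 0.30 and 0.76 against between -0.32 and -0.02 in WT, with Dpt (1.99, adjusted p = 0.0230) and Pi16 (1.64, adjusted p = 0.0467) called higher by limma. The 6 mesothelium markers lay between 0.82 and 1.09 against between -2.71 and -0.43, with a median difference of 2.65 and 0 called. The part of these markers in the Cyp26b1 difference was not tested. The calls of Aldh1a3, Crabp2 and Cyp26b1 held in 12 of 25, 13 of 25 and 13 of 24 other settings, with differences from 1.83 to 2.88, 2.24 to 2.78 and 1.12 to 1.97. None of the anterior Hox genes Hoxa2 to Hoxa4, Hoxb2 to Hoxb4 and Hoxd4 was called in these comparisons. Of all genes, 2.45% were called in the smSocs3-KO challenge and 1.11% by genotype at day 3, so 0 calls among so few genes lie near that share. Whether the retinoic acid genes bear on the Hox genes was not tested. In the smSocs3-KO challenge the 6 macrophage markers also moved, from between -0.49 and -0.31 to between 0.60 and 0.82, with Cd14, Cd68 and Mrc1 called higher, and their part in the retinoic acid genes was not tested.

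Of 12 other mesodermal homeobox genes, 11 were measured and 1 was called, Msx1, a homeobox gene of mesenchyme and vascular mural cells, in the WT challenge, where 4.68% of all genes were called and 1.09% called lower. It fell from between 0.29 and 0.56 to between -0.44 and -0.08, a difference of -0.63 (SE 0.15, limma adjusted p = 0.0436). The call held in 10 of 25 other settings, with differences from -0.71 to -0.52. In smSocs3-KO mice Msx1 read between 0.31 and 0.34 before challenge and between -0.31 and -0.07 at day 3, without a call.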

How the data were processed

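Gene expression was measured with 12 one-colour Agilent arrays. The authors deposited the scanner files, whose processed signal is a linear, background-subtracted intensity of each spot (Feature Extraction 10.7.1.1 per the file headers, 9.5.1.1 per the submitters' processing notes), and a processed table of these arrays, also as intensity, which served as an alternative.

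Control spots and outlier spots were left out, spots of a probe averaged, log2 taken and the 75th percentile of each array subtracted. A probe was kept if every array of some group read it well above background (32283 of 55681 probes). The brightest kept probe represented its gene. The 22761 genes were tested with limma 3.58.1 (R 4.3.3) with 4 group means in 1 fit, Benjamini-Hochberg adjusted. No label says that arrays of a group came from separate mice, so p-values measure the spread between these arrays. 3 arrays per group limit the precision, and array intensities give no counting depth. The fit was tested on simulated data. Positions are mm9, from the array files. RefSeq accessions of the array design were matched through a GRCm38 gene table, used for names only. Tables and plots were made with Python 3.11.15.

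The Hox genes and all gene lists were chosen with earlier results of these data known. Genes given by array are Hoxa5, Hoxc8, every Hox gene called, the 3 with the smallest p in each comparison and the detected gene of highest paralogue number in each cluster, and other Hox genes named were chosen after their values were seen. Alternatives were the background correction, normalization, filter, probe choice, moderation, samples fitted, slide, replicate block and each array left out. Arrays with the same replicate number did not consistently deviate together, with correlations of their deviations from -0.30 to 0.46, so the numbers were not taken to pair mice. Genome sequence was not used here. 1 Hox gene and 1 probe sequence are not reported here, although the gene stays in the counts and the index.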

Additional observations from a re-analysis of the deposited data

How the results depend on the processing

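The count of 2 Hox genes called in the WT challenge became 0 without a filter on dim probes, with only probes well above background on all arrays, with normexp and the 75th percentile, with only the groups compared fitted, with the first slide only and with the replicate block. It became 1 with quantile normalization, with or without normexp, with the deposited values, with trend and robust moderation and at the methods' threshold, and it ranged from 0 to 3 when 1 array was left out. The deposited values ranked probes as the scanner values did (Spearman at least 0.99997), and their normalization is not given in the sources used here. Hoxb9 kept its call in 13 of 24 alternatives (-3.02 to -0.54) and Hoxd4 in 6 of 24 (-1.25 to -0.21). With the replicate block Hoxb9 differed by -2.59 (limma adjusted p = 0.0520) and Hoxd4 by -1.03 (adjusted p = 0.128), and the block changed no other Hox call. The interaction count of 0 became 1 at the methods' threshold, and the counts of the other 3 comparisons were 0 in every alternative. The index difference in WT mice was 0.68 without WT day 3 replicate 4 and ranged from -0.073 to 0.68 over single arrays left out. With genes 9 to 13 against 1 to 4 it was -1.09, and before challenge the genotype difference was -1.03. With the milder detection criterion 17 genes were detected on all arrays and 3 on none. The sign turned for Hoxd8 in the smSocs3-KO challenge (-0.089), Hoxa6 before challenge (-0.039) and Hoxd4 at day 3 (-0.040) with normexp and the 75th percentile, and for Hoxb4 at day 3 with slide as a block (-0.35). The cause was not tested. Signals not well above background on some arrays limit Hoxa6, Hoxa9, Hoxb7, Hoxb9, Hoxd4, Hoxd8 and Hoxd11.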
